A study of Mus musculus with 4 samples.

Results

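Oxidative phosphorylation genes were taken by symbol: those that begin with Nduf, Uqcr, Sdh followed by a to d, Cox4 to Cox8, Atp5, mt-Nd, mt-Co, mt-Atp or mt-Cytb, without pseudogene symbols. The rule gave 110 of the 32285 genes in the matrices, 97 encoded in the nucleus and 13 in the mitochondrial genome. The nuclear genes held 36 genes of complex I, 4 of complex II, 8 of complex III, 20 of complex IV, 17 of complex V and 12 assembly factors. The mitochondrial genes held 7, 1, 3 and 2 subunits of complexes I, III, IV and V, and both kinds are described apart throughout. The rule reads symbols only.

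The cells were splenic B cells and CD4+ T cells of C57BL/6NRj mice, B cells taken with a Mouse B cell isolation kit and T cells with a naive CD4+ T cell kit. KO mice lack Il2rb in B cells through CD19Cre and a floxed Il2rb gene (Il2rbfl/fl). Control mice are called Cre or Ctrl, and the genotype label gives CD19Cre/+ Il2rbfl/fl for both genotypes, so the controls' Il2rb alleles cannot be read from it. Spleens came from unimmunized mice (day 0) or from mice 4 days past an intraperitoneal injection of sheep red blood cells (day 4). There were 2 libraries, 1 of B and 1 of T cells, with 4 hashtagged pools in each. Values below run through both day 0 pools first, control then KO, and then through both day 4 pools in the same way. The sources used here give neither age nor the number of mice in a pool. T cells of KO mice keep their own Il2rb gene, since CD19Cre acts in B cells.

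Oxidative phosphorylation joins an electron transport chain to ATP synthesis in the inner mitochondrial membrane. Complex I (NADH dehydrogenase) and complex II (succinate dehydrogenase) pass electrons through coenzyme Q to complex III (cytochrome bc1), cytochrome c and complex IV (cytochrome c oxidase), and the proton gradient that results drives complex V (ATP synthase). Complex II is made from nuclear genes alone, while the other complexes combine nuclear subunits with subunits that are transcribed and translated inside the mitochondrion. Naive lymphocytes have a low energy demand, and activation, germinal center entry and division are known to go with mitochondrial growth.

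The promoters of 4 nuclear members on which results below turn are shown here, from 250 bases before to 50 bases after the RefSeq start site (GRCm38.p6). Capitals mark a match, on either strand, to CCGGAAG (the core bound by ETS factors such as GABP), the palindromic motif of nuclear respiratory factor 1 (NRF1) or CACGTG (an E-box, which Myc can bind). Atp5g1 (chr11:96075582-96075881, minus strand), 1 of 3 genes for the c subunit of ATP synthase, has an E-box. Ndufaf4 (chr4:24897833-24898132, plus strand), an assembly factor of complex I, has an NRF1 match. Ndufs8 (chr19:3912725-3913024, minus strand), an iron-sulfur subunit of complex I, has an ETS match on the opposite strand. Cox7a2l (chr17:83514284-83514583, minus strand), which encodes a Cox7a-related protein, has no match to any of them.
Atp5g1: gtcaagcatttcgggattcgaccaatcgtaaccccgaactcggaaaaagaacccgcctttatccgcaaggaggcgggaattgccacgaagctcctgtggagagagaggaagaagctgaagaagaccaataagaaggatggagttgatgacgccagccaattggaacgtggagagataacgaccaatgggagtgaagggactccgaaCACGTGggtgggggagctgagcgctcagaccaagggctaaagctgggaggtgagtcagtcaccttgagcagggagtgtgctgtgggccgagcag
Ndufaf4: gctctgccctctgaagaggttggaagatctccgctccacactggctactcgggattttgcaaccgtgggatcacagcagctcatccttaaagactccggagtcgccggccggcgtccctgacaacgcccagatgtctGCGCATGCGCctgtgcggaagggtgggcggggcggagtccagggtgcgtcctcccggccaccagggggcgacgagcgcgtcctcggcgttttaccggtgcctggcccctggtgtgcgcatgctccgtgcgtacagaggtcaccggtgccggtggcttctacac
Ndufs8: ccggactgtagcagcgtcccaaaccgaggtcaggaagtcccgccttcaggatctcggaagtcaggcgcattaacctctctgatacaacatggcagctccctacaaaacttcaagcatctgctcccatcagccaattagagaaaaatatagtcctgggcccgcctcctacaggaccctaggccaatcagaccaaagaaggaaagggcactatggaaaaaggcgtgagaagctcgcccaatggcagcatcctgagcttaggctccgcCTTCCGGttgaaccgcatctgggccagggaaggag
Cox7a2l: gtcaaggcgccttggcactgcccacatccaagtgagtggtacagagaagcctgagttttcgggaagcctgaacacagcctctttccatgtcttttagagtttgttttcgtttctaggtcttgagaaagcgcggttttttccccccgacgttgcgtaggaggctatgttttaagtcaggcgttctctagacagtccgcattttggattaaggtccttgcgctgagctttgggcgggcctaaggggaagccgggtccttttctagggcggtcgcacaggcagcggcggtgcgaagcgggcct

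Promoters of 79 of the 97 nuclear members were found by symbol, 84 promoters in all. The NRF1 motif stood in 26.2% of them, against 4.60% of all 32851 promoters of the same length. CCGGAAG stood in 26.2% against 8.86%, and CACGTG in 7.14% against 7.15%. A longer motif of the factor YY1 stood in 5.95% against 0.63%. A match is a description of the letters and says nothing about binding in these cells.

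After filtering, 5241 B-lineage cells and 7114 T-lineage cells with 1 hashtag were kept, with 981 to 1859 and 918 to 3109 cells and 4396704 to 19772151 UMIs (unique molecular identifiers, 1 per captured RNA molecule) a pool. Barcodes shared by both libraries numbered 84, of which 57 carried a hashtag call in both. Il2rb checks the genotype labels poorly in B-lineage cells: they held 0, 0, 8 and 3 UMIs of it in the 4 pools, and 3 counts, the limit taken for a count of 0, come to 0.520 and 0.535 CPM in the day 0 pools (UMIs of a gene per 1000000 UMIs). T-lineage cells, where Il2rb is not deleted, held 83.0, 70.0, 108 and 102 CPM. Subsets were gated by the number of marker genes with a UMI, no member among them. Gates were filled in turn, and a cell kept the first it met. In B cells the plasma and germinal center gates came before the cycling gate, so the cycling B gate holds no cell of theirs. In T cells the cycling gate came first, so it can hold dividing cells of the other T subsets. Plasma, germinal center, cycling, B1, marginal zone, transitional, activated, interferon and Myc-high B cells were set against a follicular gate, and T subsets against a naive gate; 2477 B- and 2085 T-lineage cells fell in no gate. Markers of other lineages were low in most gates. A list of 6 dendritic cell genes summed to 155 to 232 CPM in the follicular gate and to 141 to 215 in the germinal center gate, 6 erythroid genes to 4.92 to 12.01 and 28.6 to 61.3, and 6 plasmacytoid dendritic cell genes to 46.4 to 65.6 in follicular, 169 and 187 in plasma and 240 to 375 in interferon B cells. Most of these sums rest on few genes. In the same order of gates, 2 and 3 dendritic, 5 and 1 erythroid, and 2, 1 and 2 plasmacytoid genes had a UMI at all. In the T library the dendritic genes summed to 58.2 to 63.7 in naive and 91.0 to 125 in cycling cells, and the plasmacytoid genes to 81.8 to 98.5 in naive, 174 to 228 in innate-like, 162 to 203 in effector or memory and 230 to 489 in interferon T cells. Each of these T sums came from 3 of the 6 genes. The part of these transcripts in the results was not tested. Marker counts rise with depth, and the gates differ in it: the median was 4303 to 5256 UMIs a cell in the 4 pools of the follicular gate, 14584 to 19419 in the germinal center gate, 4870 to 5927 in the naive gate and 13566 to 16485 in the cycling T gate. The part of depth in the differences below was not tested, except where cells of 3000 to 8000 UMIs alone could be fitted.

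Ribosomal protein genes took 37.1% of UMIs in the naive gate (mean of 4 pools) but 23.0% to 28.2% in the cycling, follicular helper, effector or memory, innate-like and regulatory gates. A share of all UMIs therefore depends on the total it is taken from, and the ratio of mitochondrial to nuclear member UMIs, which needs no total, is given beside it. Capture at the 5′ end gives 1 tag a molecule, so levels of different genes are compared as molecules and need no length correction. Members with near-identical copies elsewhere in the genome are uncertain where the authors' alignment could split or drop their reads. The genes mt-Atp8 and mt-Atp6 overlap, as do mt-Nd4l and mt-Nd4, and each pair is read from 1 transcript, so the split of UMIs within a pair is uncertain. Cells above 10% mitochondrial UMIs were removed, which caps the mitochondrial levels.

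Mitochondrial transcripts were the larger part of the pathway's RNA. Over all lineage cells the mitochondrial subunits summed to 8922 (complex I), 4054 (complex III), 15336 (complex IV) and 5865 (complex V) CPM in B cells and 7222, 3282, 14439 and 5290 in T cells. The nuclear subunits summed to 4864 (complex I), 356 (complex II), 1554 (complex III), 4516 (complex IV) and 6049 (complex V) in B cells and 5410, 315, 1783, 4954 and 6600 in T cells. Assembly factors, which help build a complex but are not part of it, summed to only 379 and 344.

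Among mitochondrial genes mt-Co1, the catalytic subunit of complex IV, was highest, at 7017 CPM in B and 7263 in T cells. It was followed by mt-Co2 (4416 and 3732), mt-Cytb, the cytochrome b of complex III (4054 and 3282), mt-Co3 (3903 and 3444) and mt-Atp8 (3512 and 3104). The lowest were mt-Nd6, the only one on the light strand (224 and 161), and mt-Nd3 (102 and 93.0). Among nuclear genes the highest were Atp5e, the epsilon subunit of ATP synthase (842 in B and 875 in T cells), Cox8a (667 and 619), Atp5g2 (622 and 550), Cox4i1 (621 and 754), Uqcrh (476 and 629) and Cox7c (470 and 574). Large subunits were lower: Ndufs1 of complex I stood at 37.9 and 41.8, Sdha of complex II at 119 and 100, the core protein Uqcrc1 of complex III at 120 and 99.0 and the ATP synthase beta subunit Atp5b at 399 and 335.

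Several complex IV subunits exist in forms known from muscle, testis or lung, and these were near or at 0. Cox7b2 and Cox8c had 0 UMIs in both libraries and Ndufa4l2 had 0 in T cells, where 3 counts come to 0.0861 CPM in B and 0.0704 in T cells. Cox8b had 3 and 1 UMIs in B and T cells, Cox4i2 had 1 and 3, and Ndufa4l2 had 2 in B cells. Cox7a1 had 40 UMIs in T-lineage cells, of which 19 were in cycling T cells. The form Cox6b2 had 47 UMIs over all B-lineage cells, and Cox6a2 had 48, of which 17 came from 1 cell.

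**Figure D1:**
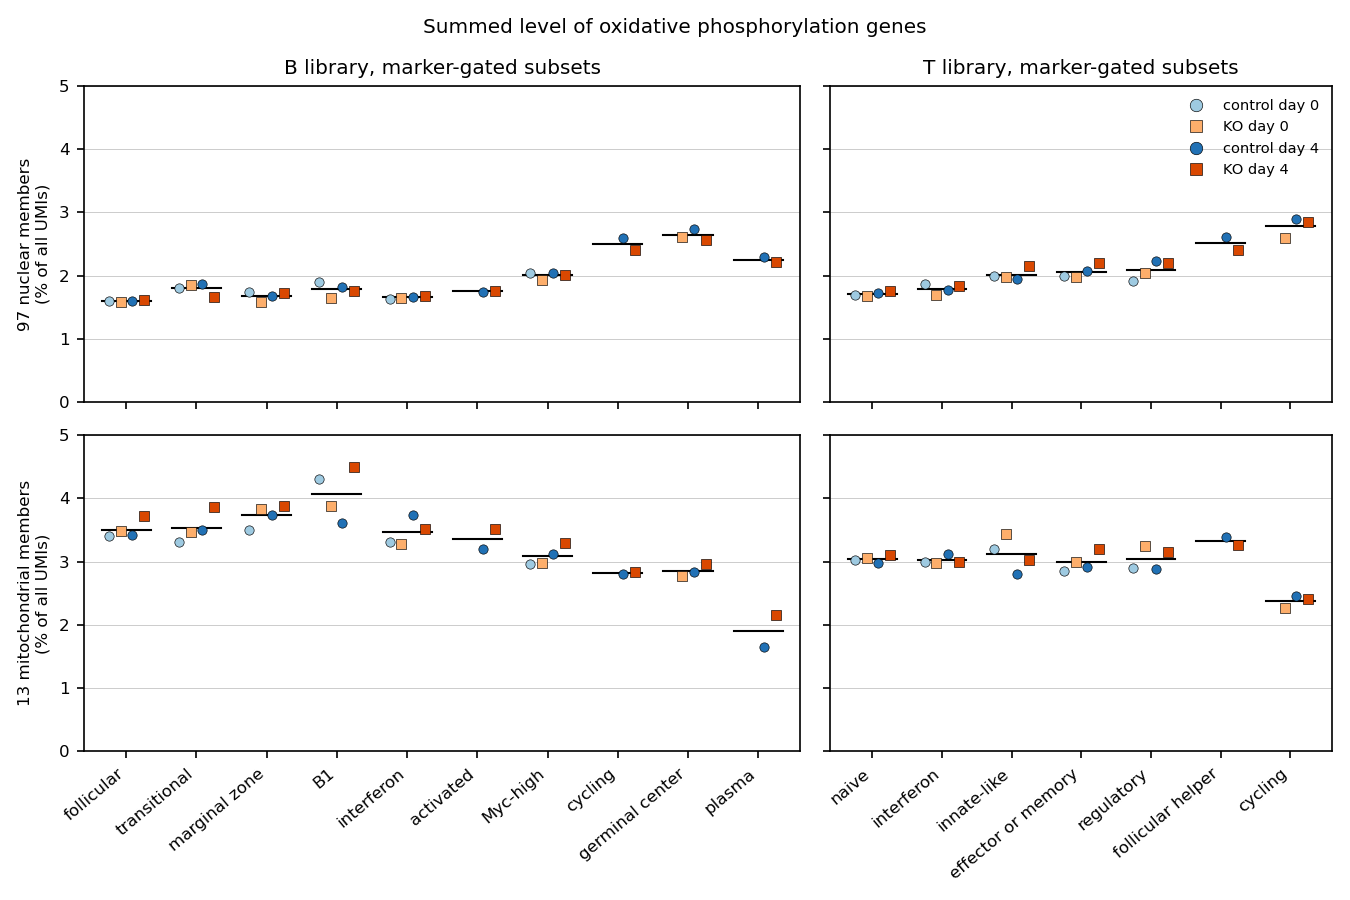
Summed share of all UMIs (percent) of the 97 nuclear members (top) and the 13 mitochondrial members (bottom) by marker-gated subset in the B library (left) and T library (right); each point is 1 pool with at least 10 cells of the gate, and bars are means over pools. Of all UMIs, nuclear members took 2.57% to 2.73% in germinal center B and 2.60% to 2.90% in cycling T cells, and mitochondrial members 1.65% and 2.16% in plasma cells.

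As shares of all UMIs, nuclear and mitochondrial members moved apart in germinal center B cells and cycling T cells. In the follicular gate the nuclear share of UMIs was 1.59%, 1.58%, 1.60% and 1.62% in the 4 pools, and the mitochondrial share 3.41%, 3.48%, 3.42% and 3.72%. In the germinal center gate, with 11, 23 and 21 cells in the KO day 0, control day 4 and KO day 4 pools, the nuclear share was 2.61%, 2.73% and 2.57% and the mitochondrial share 2.77%, 2.84% and 2.97%. No germinal center pool overlapped a follicular one in either share. In the naive T gate the nuclear share was 1.69%, 1.68%, 1.72% and 1.76% and the mitochondrial share 3.02%, 3.06%, 2.98% and 3.10%. Cycling T cells, with 10, 77 and 100 cells in the KO day 0 and the day 4 pools, had 2.60%, 2.90% and 2.85% nuclear and 2.27%, 2.46% and 2.41% mitochondrial UMIs, again without overlap.

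Plasma cells had 2.29% and 2.21% nuclear UMIs in the control and KO day 4 pools (19 and 10 cells) and 1.65% and 2.16% mitochondrial UMIs, at a median depth of 35782 and 36435 UMIs a cell. The day 0 pools held 6 plasma cells each, too few for the minimum of 10. Their nuclear shares of all UMIs were 0.987% and 1.109%, below all follicular pools. Once ribosomal, receptor and mitochondrial genes are left out of the total, the direction turned. The day 0 plasma pools then had 2.55% and 2.89% nuclear UMIs, above the 2.35% to 2.45% of the follicular pools. With the same reduced total the day 4 plasma pools had 4.18% and 3.83% nuclear and 3.01% and 3.74% mitochondrial UMIs. Germinal center cells had 3.50%, 3.79% and 3.48% nuclear and cycling T cells 3.11%, 3.29% and 3.20% mitochondrial UMIs. Cycling B cells, at day 4 only, had 2.59% and 2.41% nuclear and 2.81% and 2.84% mitochondrial UMIs. B1 cells had mitochondrial shares of 4.31%, 3.88%, 3.61% and 4.49% from 15 to 28 cells a pool. Follicular helper T cells had 2.62% and 2.41% nuclear and 3.39% and 3.27% mitochondrial UMIs at day 4. These day 4 gates had 2 pools each and were not tested.

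The ratio of mitochondrial to nuclear UMIs put the subsets in order. In the B library it was 1.99 to 2.55 in B1, 2.02 to 2.42 in marginal zone, 2.14 to 2.30 in follicular, 1.99 to 2.24 in interferon, 1.83 to 2.33 in transitional, 1.84 to 1.997 in activated, 1.45 to 1.65 in Myc-high, 1.08 to 1.18 in cycling, 1.04 to 1.16 in germinal center and 0.720 to 0.979 in plasma cells. The first 5 overlapped with their neighbours, Myc-high cells lay below all of the activated and above all of the cycling pools, and the cycling and germinal center gates overlapped. In the T library it was 1.74 to 1.82 in naive, 1.61 to 1.76 in interferon, 1.41 to 1.73 in innate-like, 1.296 to 1.60 in regulatory, 1.41 to 1.52 in effector or memory, 1.29 to 1.36 in follicular helper and 0.846 to 0.874 in cycling T cells. Only the cycling T gate stood clear of every other T gate.

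**Figure D2:**
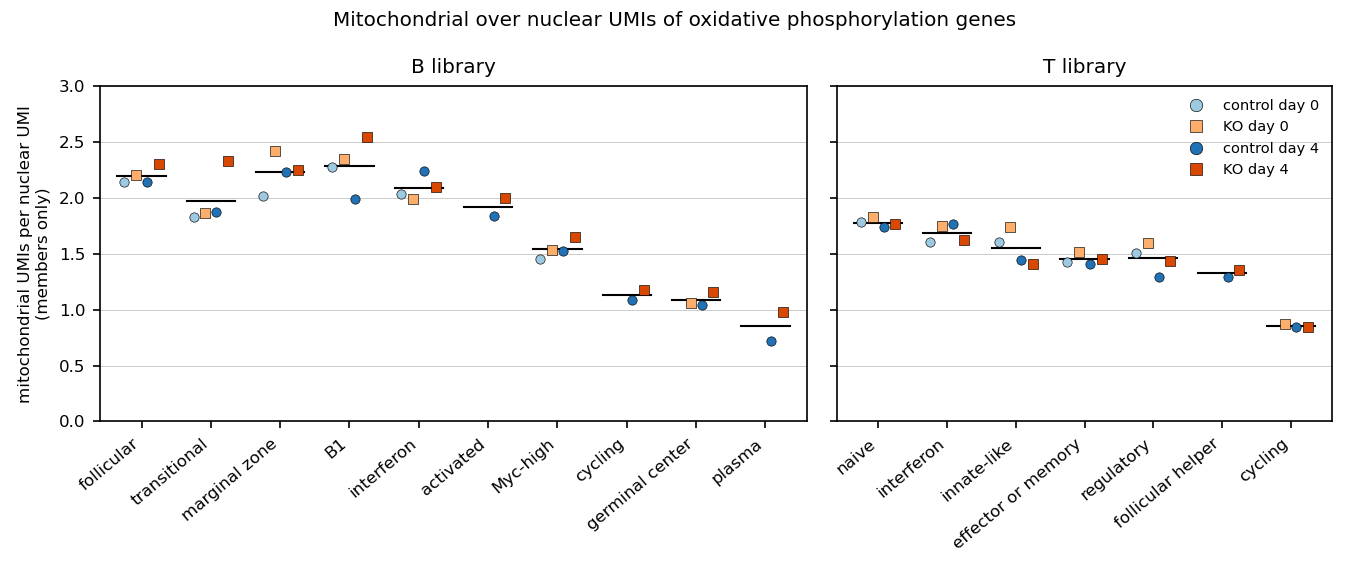
Mitochondrial UMIs per nuclear UMI of the oxidative phosphorylation genes by marker-gated subset, for the B library (left) and T library (right); points are pools with at least 10 cells and bars are means over pools. The ratio fell from 2.14 to 2.30 in follicular cells to 1.04 to 1.16 in germinal center cells, and from 1.74 to 1.82 in naive to 0.846 to 0.874 in cycling T cells.

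For subsets with at least 10 cells in 3 or more pools, each gene was tested against the reference gate of the same pools with edgeR's quasi-likelihood test, the pool as a block, and Benjamini-Hochberg adjusted p-values over all genes tested. Folds are on edgeR's TMM scale, which centres on the bulk of genes. Pools are the replicates here, and the cells of a pool share their animals.

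Germinal center B cells, in which follicular cells divide and mutate their antibody genes, had higher levels of most nuclear members. Of 82 nuclear members tested, 55 were higher and 1 lower at an adjusted p under 0.05, while 22.3% of the 4102 genes tested were higher and 22.0% lower. The median log2 fold of the nuclear members was 0.61, against −0.02 over all genes. By complex, 19 of 36 rose in complex I, 2 of 4 in complex II, 7 of 8 in complex III, 11 of 12 tested in complex IV and 16 of 17 in complex V, but 0 of 5 tested assembly factors did. Of the 13 mitochondrial members 12 fell and none rose, with a median log2 fold of −0.45. This fall is relative to other genes, in cells of greater depth. The median cell held 412 to 526 mitochondrial member UMIs over the germinal center pools and 143 to 169 over the follicular pools. Leaving out the control day 4 pool lowered the count of nuclear members that passed to 33, and leaving out the KO day 4 pool to 36. The comparison could not be fitted on cells of 3000 to 8000 UMIs.

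The iron-sulfur subunit of complex II, Sdhb, rose most in germinal center cells. It stood at 278, 297 and 296 CPM in the KO day 0, control day 4 and KO day 4 pools, against 113, 105 and 105 in the follicular cells of these pools (log2 fold 1.34 ± 0.15 SE, adjusted p = 0.000213). Its partner Sdha, the flavoprotein subunit of the same complex, stood at 176, 149 and 124 against 140, 131 and 125 and did not pass (0.06 ± 0.16, adjusted p = 0.847). The pools of Sdhb did not overlap between the gates and those of Sdha did. Atp5g3, which encodes the same c subunit protein as Atp5g1 and Atp5g2, reached 856, 945 and 943 against 318, 329 and 370 (1.33 ± 0.10, adjusted p = 2.92e-05). Uqcr10 of complex III (1.22) and Atp5j, the F6 subunit of ATP synthase (1.22), came next, and Atp5b rose by 1.05. The only nuclear member to fall was Ndufa6 of complex I, at 227, 259 and 279 against 313, 314 and 327 (−0.41 ± 0.13, adjusted p = 0.0317), and it passed in 9 of 13 alternative settings. Ndufs1 did not pass (0.19 ± 0.25, adjusted p = 0.586).

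The 12 mitochondrial members that fell in germinal center cells belong to complexes I, III, IV and V. The catalytic subunit mt-Co1 stood at 6082, 6179 and 6300 CPM against 7245, 6845 and 7701 in follicular cells (−0.33 ± 0.05, adjusted p = 0.000826). The largest fall was that of mt-Nd2 (−0.91), followed by mt-Nd5 (−0.63) and mt-Atp8 (−0.51), and the smallest was that of mt-Co3 (−0.26). Only mt-Nd3, the least abundant, did not pass (−0.50 ± 0.19, adjusted p = 0.0593).

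**Figure D3:**
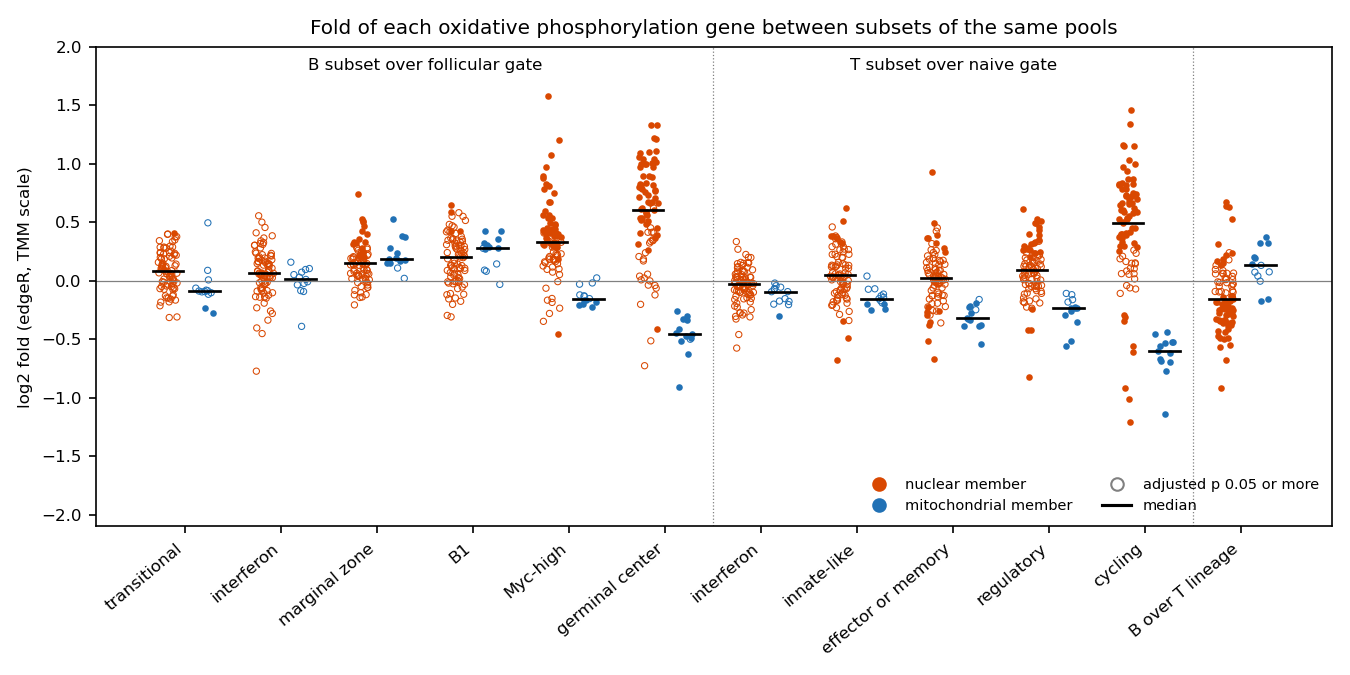
Log2 fold (edgeR, TMM scale) of each nuclear (orange) and mitochondrial (blue) oxidative phosphorylation gene between each B subset and the follicular gate, each T subset and the naive gate, and B and T lineage cells; filled points passed an adjusted p of 0.05 and black bars are medians. Nuclear medians were 0.61 in germinal center B cells and 0.50 in cycling T cells, where the mitochondrial medians were −0.45 and −0.60.

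Myc-high B cells were gated on Myc and 4 genes of ribosome and polyamine synthesis, a state known from the first hours of antigen or cytokine stimulation. They had 47 nuclear members higher and 1 lower of 83 (20.8% and 17.3% of all genes tested), with a median log2 fold of 0.33. Of the mitochondrial members 6 of 13 fell and none rose (median −0.15), but 1 fell without the KO day 4, 3 without the control day 4 and 4 without the control day 0 pool. Median depth was 6530 to 8663 UMIs a cell, and with cells of 3000 to 8000 UMIs alone 22 nuclear members passed. The median Myc-high cell held 177 to 277 mitochondrial member UMIs over the pools, against 143 to 169 in follicular cells.

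The complex I assembly factor Ndufaf4 rose most. It stood at 111, 80.4, 113 and 81.0 CPM in the 4 pools of Myc-high cells and at 42.0, 34.1, 33.0 and 24.0 in follicular cells (1.58 ± 0.15, adjusted p = 7.17e-06). Atp5g1 stood at 400, 386, 371 and 395 against 166, 174, 162 and 179 (1.203 ± 0.08, adjusted p = 4.6e-07). For both genes, named for the largest rises, every Myc-high pool lay above every follicular pool, and both passed in every alternative setting run. Ndufa12 (1.07), Uqcrq of complex III (0.97) and Atp5b (0.83) also rose. The single member to fall was Cox7a2l, from 294, 268, 308 and 256 in follicular to 152, 231, 221 and 198 in Myc-high cells (−0.46 ± 0.12, adjusted p = 0.00861). Cox4i1 rose by only 0.19 (adjusted p = 0.0498) and passed in 2 of 15 alternatives, and Sdha (−0.18, adjusted p = 0.232), Uqcrc1 (0.16, adjusted p = 0.234) and Ndufs1 (0.22, adjusted p = 0.349) did not pass.

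The 3 genes of the ATP synthase c subunit shifted against each other. Of their summed UMIs, Atp5g1 gave 15.02% to 16.53% over the 4 follicular pools, 21.9% to 24.1% in Myc-high cells and 10.0% to 14.9% in germinal center cells. Atp5g3 gave 30.1% to 33.2% in follicular, 32.1% to 35.4% in Myc-high and 43.1% to 45.1% in germinal center cells. These shares were not tested. The level of Atp5g1 itself rose in germinal center cells, to 198, 292 and 313 CPM against 174, 162 and 179 in the follicular cells of these pools (0.54 ± 0.17, adjusted p = 0.0300). It passed in 9 of 13 alternative settings and was lost without the control day 4 or the KO day 4 pool.

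**Figure D4:**
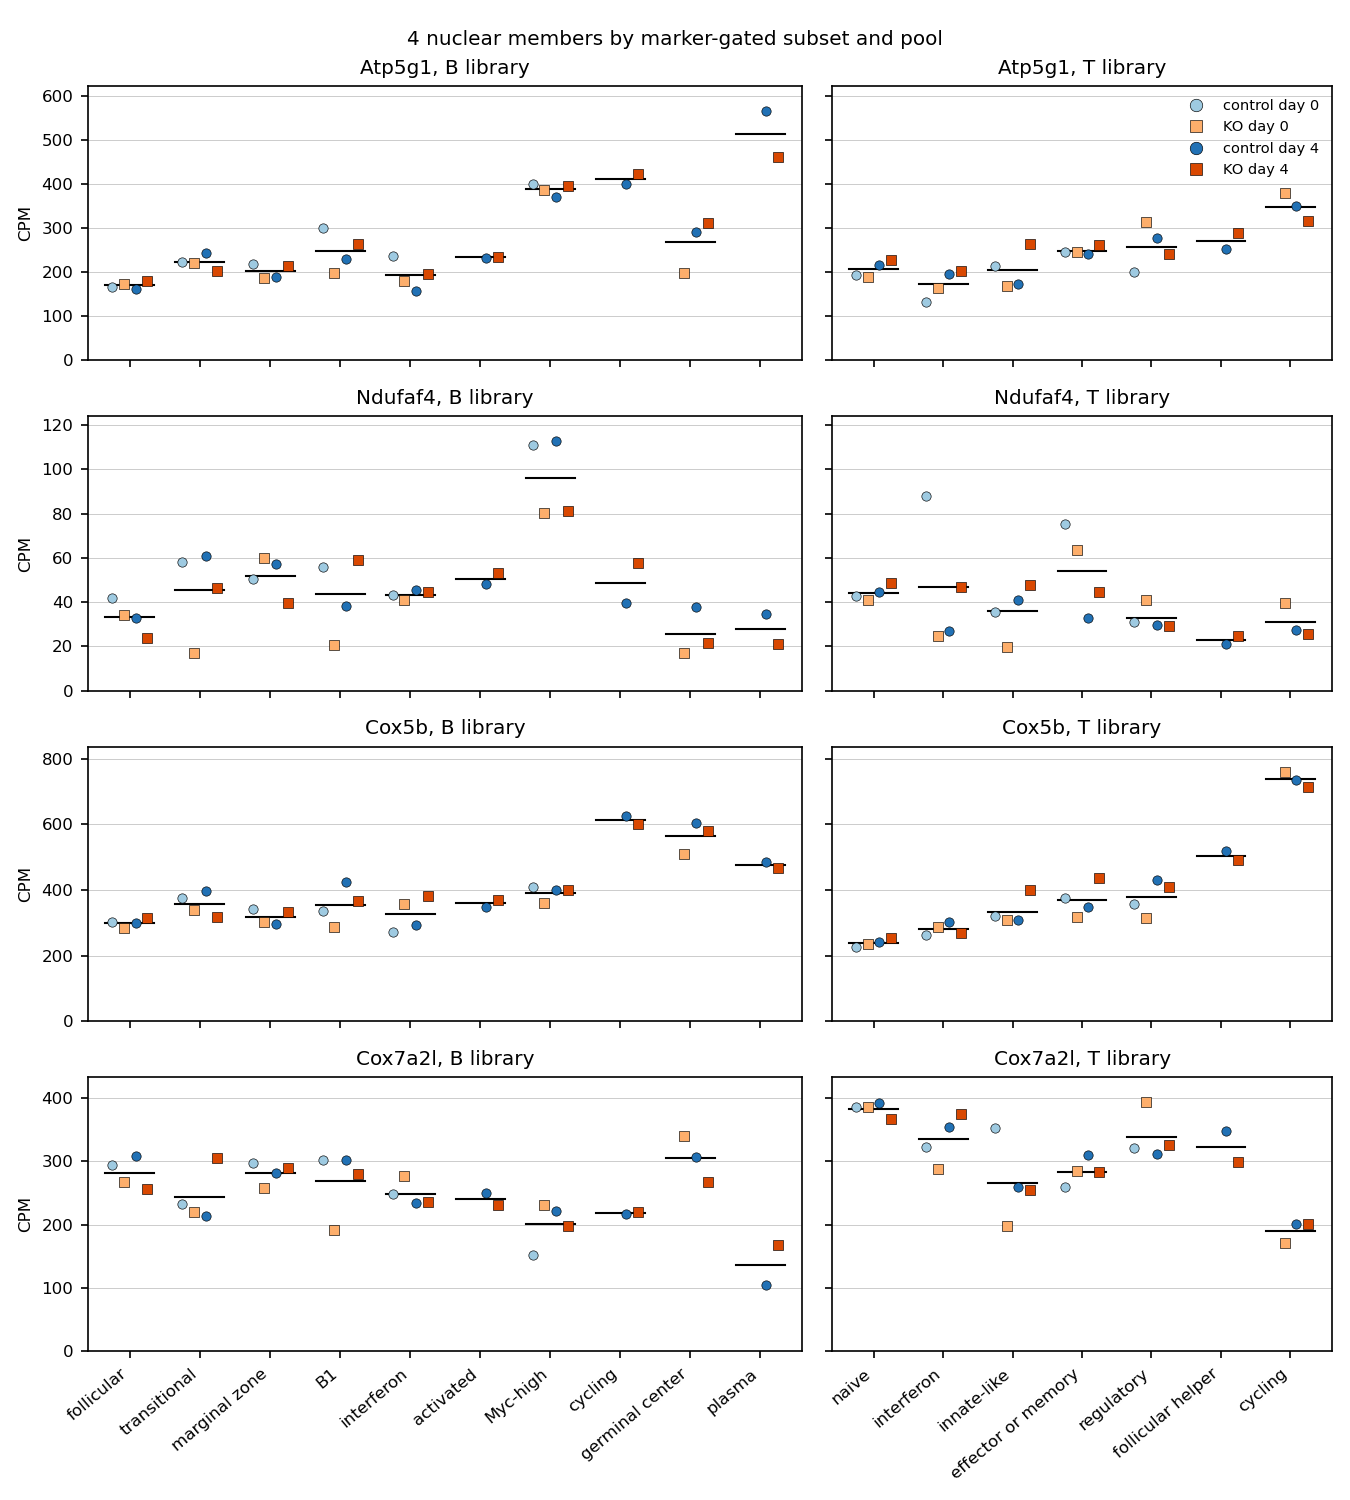
CPM of Atp5g1, Ndufaf4, Cox5b and Cox7a2l by marker-gated subset in the B library (left) and T library (right); points are pools with at least 10 cells and bars are means over pools. Atp5g1 and Ndufaf4 stood higher in every Myc-high pool than in every follicular pool, Cox5b reached 715 to 761 in cycling T cells, and Cox7a2l fell to 170 to 201 there.

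Marginal zone and B1 cells, innate-like B cells that respond early to blood-borne antigen, were set against the same follicular gate. In marginal zone cells 18 of 83 nuclear members rose and none fell (11.0% and 9.21% of all genes), as did 11 of 13 mitochondrial members, with median log2 folds of 0.15 and 0.19. Only 1 nuclear member passed with cells of 3000 to 8000 UMIs, and 7 passed with 1 more marker gene required. The nuclear members that rose most were Ndufaf4 (0.74 ± 0.16, adjusted p = 0.00475), Uqcr10 (0.53), Sdhaf1, an assembly factor of complex II (0.51), and Ndufa10 (0.50). Ndufaf4 stood at 50.6, 60.0, 57.1 and 39.6 CPM against 42.0, 34.1, 33.0 and 24.0, higher within each pool but with overlap between pools. In B1 cells 4 of 83 nuclear members rose, a share no higher than that over all genes (5.29% of all genes were higher and 4.39% lower). They were Uqcr10 (0.65), Atp5g1 (0.59), Cox6c (0.43) and Cox7c (0.42). Leaving out the control day 4 or the KO day 4 pool left 1 of these 4, leaving out the control day 0 pool left 2, and the fit without the pool block called 12. Of the mitochondrial members of B1 cells 8 of 13 rose (median 0.28), but 2 without the KO day 4, 4 without the control day 0 and 5 without the KO day 0 pool.

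Transitional B cells, recent arrivals from the bone marrow, had 1 nuclear member higher of 83 (1.29% of genes were higher and 3.15% lower). It was Atp5a1, the alpha subunit of ATP synthase (0.41 ± 0.11, adjusted p = 0.0480), which passed in 5 of 14 alternatives and was lost without the control day 0, KO day 0 or control day 4 pool. Of their mitochondrial members mt-Nd2 (−0.27) and mt-Atp8 (−0.23) fell, but 1 did without the control day 0 or the KO day 0 pool, and without TMM none was lower and 1 was higher. The interferon B gate, cells with genes of the antiviral response, had 0 members past the threshold in edgeR (2.55% of genes were higher and 0.519% lower) and 0 in DESeq2, with 6 nuclear and 1 mitochondrial member at an unadjusted p under 0.05. In simulated data for this comparison the fit recovered 5.15% of 1.5-fold and 41.1% of 2-fold changes. The simulation gave all genes the same spread and changed genes drawn from all those tested, so recovery among the members can differ. The count of 0 does not show that levels were equal.

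In the T library the scaling moved the counts. Without TMM the median of all genes shifted by 0.22 (cycling), 0.17 (innate-like), 0.22 (regulatory) and 0.26 (effector or memory) on the log2 scale, and nuclear members passed 23 higher and 1 lower, 56 and 1, and 43 and 1 in the last 3. Values below are on the TMM scale, relative to the bulk of genes.

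Cycling T cells had 59 nuclear members higher and 8 lower of 87 tested (26.5% and 27.0% of all genes), with a median log2 fold of 0.50. All 13 mitochondrial members fell, with a median of −0.60. Here too the fall is relative to other genes. The median cell held 361 to 437 mitochondrial member UMIs over the cycling pools and 145 to 173 over the naive pools. The smallest fall was that of mt-Co2 (−0.43) and the largest that of mt-Nd2 (−1.14). The comparison rests on 10 cells in the KO day 0 pool and could not be fitted on cells of 3000 to 8000 UMIs.

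Cox5b, a zinc-binding subunit of complex IV, stood at 761, 737 and 715 CPM in the KO day 0, control day 4 and KO day 4 pools of cycling T cells against 235, 241 and 253 in naive cells (1.34 ± 0.10, adjusted p = 1.82e-10). Ndufaf2, an assembly factor of complex I, rose most (1.46 ± 0.18, adjusted p = 1.04e-06) from a low level, 45.4, 39.0 and 47.5 against 14.2, 13.03 and 13.5. The complex I subunits Ndufs8 (1.16) and Ndufb8 (1.15) followed. These 4 genes were named for the largest rises of this comparison. Their gates did not overlap, which adds no support to genes chosen so. Of the representatives, Uqcrc1 (0.59) and Atp5b (0.60) rose, and Ndufs1 (−0.07, adjusted p = 0.721), Sdha (−0.11, adjusted p = 0.490) and Cox4i1 (0.17, adjusted p = 0.129) did not pass.

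Cox7a2l fell in cycling T cells, to 170, 201 and 201 CPM from 386, 392 and 367 in the naive cells of these pools (−1.205 ± 0.11, adjusted p = 5.32e-09). Its relative Cox7a2, the common complex IV subunit of this family, rose from 238, 219 and 238 to 420, 502 and 497 (0.82 ± 0.10, adjusted p = 7.10e-07). Cox7a2l gave 60.7% to 64.1% of the UMIs of this gene pair in naive and 28.6% to 28.8% in cycling T cells. In the B library it gave 53.0% to 62.0% in follicular, 39.9% to 40.8% in germinal center and 19.7% to 33.2% in plasma cells. In germinal center cells the level of Cox7a2l itself did not pass (0.02 ± 0.14, adjusted p = 0.913), whereas Cox7a2 rose by 1.01. The other nuclear members that fell most in cycling T cells were the assembly factors Ndufaf4 (−1.01), Sdhaf1 (−0.91) and Sdhaf4 (−0.60).

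Cox7a2l also fell in 3 of the 4 other T subsets tested, and did not pass in the interferon gate (−0.22, adjusted p = 0.395). Effector or memory T cells had 259, 284, 309 and 282 CPM against 385, 386, 392 and 367 in naive cells (−0.67 ± 0.09, adjusted p = 1.05e-07). Innate-like T cells had 353, 198, 260 and 255 (−0.68 ± 0.11, adjusted p = 1.90e-05). Regulatory T cells, which restrain immune responses, had 320, 393, 312 and 326 (−0.42 ± 0.09, adjusted p = 0.000332), with overlap between pools. These comparisons share the naive gate.

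Counts in these 3 subsets were closer to the background. Regulatory T cells had 22 nuclear members higher and 4 lower of 87 (16.4% and 15.4% of all genes), innate-like T cells 7 and 3 (8.37% and 7.66%), and effector or memory T cells 8 and 8 (11.9% and 10.3%). Without the control day 4 pool these counts were 10 and 2 in regulatory and 5 and 3 in effector or memory cells, and without the KO day 4 pool 11 and 3 in regulatory, 4 and 2 in innate-like and 2 and 4 in effector or memory cells. Without the control day 0 pool innate-like cells had 4 and 2. In regulatory T cells Ndufaf7, an assembly factor of complex I (0.61), Sdhaf1 (0.53), Ndufaf2 (0.51) and Ndufb8 (0.49) rose most, and Ndufaf4 (−0.82) fell most. In innate-like T cells Cox8a rose most, at 950, 853, 901 and 871 against 521, 503, 519 and 511 CPM (0.62 ± 0.08, adjusted p = 2.54e-07). In effector or memory T cells Ndufaf7 (0.93), Ndufs8 (0.50), Ndufb8 (0.39) and Cox5b (0.37) rose most, while Atp5g2 (−0.23) and Atp5b (−0.27) fell. Without TMM Atp5g2 stood at 0.03.

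Mitochondrial members fell in 9 of 13 cases in regulatory, 11 of 13 in effector or memory and 4 of 13 in innate-like T cells on the TMM scale (medians −0.23, −0.32 and −0.15). Without the control day 4 or the KO day 4 pool 4 fell in regulatory cells. In innate-like cells none passed without the KO day 4 pool, 1 without the control day 4 and 2 without the KO day 0 pool, and in effector or memory cells 8 to 11 fell with each pool left out in turn. Without TMM these medians were −0.02, −0.06 and 0.03, and mt-Co1, mt-Co2 and mt-Co3 in effector or memory cells changed sign to 0.06, 0.04 and 0.04. The interferon T gate had 0 nuclear members past the threshold in edgeR (3.35% of all genes were higher and 0.882% lower) and 0 in DESeq2, with 3 at an unadjusted p under 0.05. Of its mitochondrial members mt-Nd2 passed as lower (−0.30, adjusted p = 0.0237), but none passed in DESeq2, without TMM, or with any 1 of the 4 pools left out. In data simulated in the same way for the interferon T gate the fit recovered 27.3% of 1.5-fold and 57% of 2-fold changes, again over genes drawn from all those tested.

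B-lineage cells compared with T-lineage cells had 11 nuclear members higher and 48 lower of 89 tested (33.4% and 34.7% of all genes), with a median log2 fold of −0.15. Without TMM, which moved the median of all genes by 0.10 on the log2 scale, 24 were higher and 36 lower. Lineage and library cannot be told apart here. Ndufv3, a small complex I subunit with a tissue-dependent isoform, stood at 114, 103, 127 and 118 CPM in B and 186, 187, 225 and 218 in T cells (−0.92 ± 0.05, adjusted p = 1.70e-07). Atp5h of the ATP synthase stalk (−0.68), Cox7a2l (−0.57) and Atp5md (−0.55) were also lower, and Ndufs8 (0.67) and the complex II assembly factors Sdhaf3 (0.64) and Sdhaf2 (0.63) were higher in B cells. For Ndufs8 the B pools held 121, 118, 136 and 129 and the T pools 60.7, 63.1, 86.2 and 84.3, without overlap. Of the mitochondrial members 6 were higher and 2 lower (11 and 0 without TMM, 3 and 2 without the KO day 4 pool), from −0.17 (mt-Nd4) to 0.37 (mt-Nd6).

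Other genes of the pathway were taken from 4 lists of 75 genes in all. In germinal center cells 4 of 4 tested electron carrier genes rose, among them Etfa, which feeds electrons from fatty acid oxidation into coenzyme Q (1.11), and Cyc1, the cytochrome c1 of complex III (0.90). Of 7 inhibitors and exchangers 6 rose, among them Ucp2 (1.04) and the ATP/ADP exchanger Slc25a5 (1.01). Of 10 tested assembly factors 3 rose and Cox20 fell (−0.82), and of 5 tested genes of mitochondrial transcription and regulation 1 passed, Slirp, which stabilizes mitochondrial messenger RNA (1.18). Over all genes of this comparison 22.3% were higher and 22.0% lower. The rises among assembly factors and among genes of transcription and regulation were near that share.

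In Myc-high cells Pprc1, a coactivator related to PGC-1 (1.65), Uqcc2, an assembly factor of complex III (1.12), Slc25a5 (1.11) and cytochrome c, Cycs (1.06), rose, and Atpif1, the inhibitor of ATP synthase, fell (−0.37, passing in 8 of 15 alternatives). In cycling T cells Atpif1 rose by 2.15, Etfb by 1.75 and the copper chaperone Cox17 by 1.05, and Fastkd1 (−1.39), Ttc19 (−1.09) and Myc (−1.42) fell. In regulatory T cells Atpif1 (1.46) and Etfb (0.95) rose and the coactivator Ppargc1b fell (−0.97). In effector or memory T cells Etfb rose (1.17) and Chchd10 (−1.41) and Myc (−1.89) fell. Chchd10, a protein of the intermembrane space, was also the gene of these lists that differed most between lineages, higher in B cells by 2.21.

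Pools were compared by ratios alone, since each group was 1 pool. Intervals are 95% conditional binomial intervals that cover counting error only, and the subsets present in a pool weigh on its level. A gene entered with at least 200 UMIs in both pools together, and counted as past the size rule when it was at least 25% higher in either pool. The 4 comparisons of a library share pools with each other, so their values are given side by side.

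At day 0 KO and control pools were close. In B cells 42 of 86 nuclear members were higher in KO (43.8% of all genes were), and the summed ratio was 1.003 (0.994 to 1.012) for nuclear and 1.010 (1.004 to 1.017) for mitochondrial members. Only Ndufaf4, at 36.0 against 46.3 CPM, was past the size rule, with a ratio of 0.778 (0.644 to 0.937), where 3.76% of all genes were that much lower and 2.53% that much higher. In T cells 44 of 83 nuclear members were higher (44.4% of all genes), with summed ratios of 1.001 and 1.009 and no member past the size rule (2.77% of genes higher and 3.28% lower). Uqcrc1 was highest, with a ratio of 1.17 (1.02 to 1.34), and Sdhaf1 lowest, with 0.868 (0.730 to 1.03).

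At day 4 mitochondrial members were higher in the KO than in the control pool of B cells. All 13 were, by ratios of 1.07 (mt-Atp8) to 1.17 (mt-Nd2), and the summed ratio was 1.109 (1.104 to 1.114), where 63.4% of all genes were higher. None was past the size rule (4.41% of all genes were that much higher and 2.95% lower). Within gates the mitochondrial ratio was 1.09 in follicular cells, 1.08 in cells of no gate, 1.31 in plasma, 1.24 in B1, 1.103 in transitional, 1.098 in activated, 1.06 in Myc-high, 1.05 in germinal center, 1.04 in marginal zone and 1.01 in cycling cells, but 0.941 in the interferon gate. Nuclear members went the other way over the whole pool, with 18 of 89 higher in KO and a summed ratio of 0.966 (0.960 to 0.972). Within gates the nuclear ratio was 0.885 in transitional, 0.930 in cycling, 0.939 in germinal center, 0.965 in plasma, 0.971 in B1 and 0.980 in Myc-high cells and 0.98998 in cells of no gate. It was 1.006 in interferon, 1.009 in activated, 1.014 in follicular and 1.03 in marginal zone cells. With TMM factors the ratio over the whole pool was 0.932, with 7.87% of nuclear members higher, and after thinning each cell to 1500 UMIs it was 0.999, with 57.7% higher. Atp5b had a ratio of 0.922 (0.886 to 0.960) and Ndufs1 of 1.12 (0.976 to 1.28).

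In T cells at day 4 the KO to control ratio was 0.994 (0.989 to 0.999) for nuclear and 1.034 (1.029 to 1.038) for mitochondrial members. Of the nuclear members 47 of 89 and of the mitochondrial 12 of 13 were higher in KO, against 57.1% of all genes. No member was past the size rule (2.59% of genes higher and 2.22% lower). Nuclear ratios ran from 0.809 (0.633 to 1.03) for Ndufaf6 to 1.202 (0.916 to 1.59) for Sdhaf3, both of which are rare transcripts whose intervals hold 1.

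**Figure D5:**
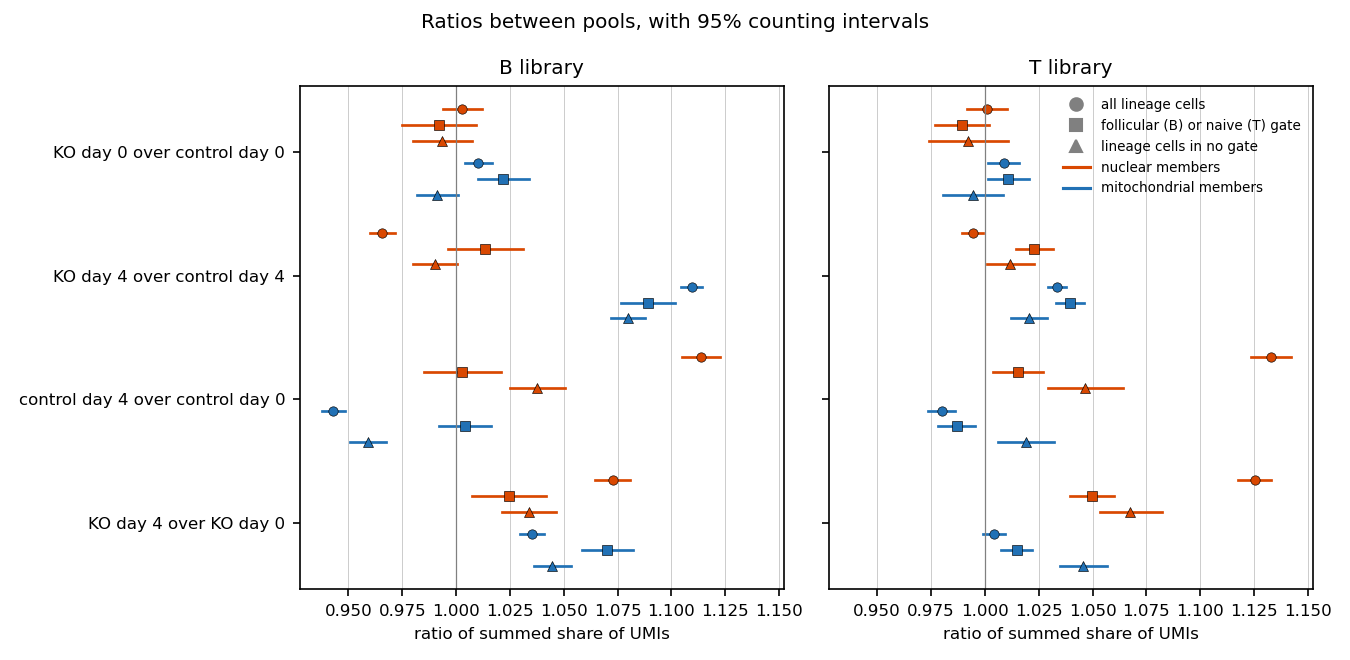
Ratio between pools of the summed share of UMIs of nuclear (orange) and mitochondrial (blue) members in all lineage cells (circles), the follicular or naive gate (squares) and lineage cells in no gate (triangles), with 95% counting intervals. Day 4 over day 0 the nuclear ratio was 1.07 to 1.13 over all lineage cells but 1.003 to 1.050 within the reference gates, and the B-cell mitochondrial KO to control ratio at day 4 stayed above 1 in all 3 sets.

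From day 0 to day 4 most nuclear members were higher in each genotype and lineage. In B cells 77 of 87 were higher at day 4 in control (35.3% of all genes) and 71 of 88 in KO (45.0%), with summed ratios of 1.114 and 1.073. In T cells 74 of 85 were higher in control (50.5%) and 79 of 88 in KO (59.3%), with ratios of 1.133 and 1.125. Within the follicular gate the ratios were 1.003 and 1.025, and within the naive gate 1.015 and 1.050. In the same pools gates with high nuclear shares held more cells at day 4, as cycling T cells numbered 6 and 10 in control and KO at day 0 and 77 and 100 at day 4, and their part in the rise was not tested.

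Past the size rule were 5 nuclear members in control B cells (7.71% of all genes were that much higher and 18.1% lower) and 1 in KO B cells (6.60% and 7.64%). In control B cells Atp5g3 rose to 477 from 368 CPM, a ratio of 1.296 (1.23 to 1.36), followed by Atp5g1 with 1.29, Uqcr10 with 1.28 and Cox5a with 1.26. In KO B cells it was Ndufab1, with 1.28 (1.16 to 1.42). In T cells 9 members in control (11.9% of all genes higher and 9.04% lower) and 8 in KO (11.2% and 4.12%) were past the size rule. Ndufs8 led both, with ratios of 1.42 (1.24 to 1.63) and 1.34 (1.19 to 1.498), and Cox5b had 1.37 and 1.28. Within the naive gate no nuclear member was past the size rule in either genotype.

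Over all lineage cells mitochondrial members did not share the nuclear rise in either control lineage or in KO T cells, and in KO B cells they rose less. From day 0 to day 4 their summed ratio in control B cells was 0.943 (0.938 to 0.948) and in KO B cells 1.035 (1.030 to 1.041), and 0.980 (0.974 to 0.986) in control and 1.004 (0.999 to 1.009) in KO T cells. In control B cells 12 of 13 were lower, and only mt-Nd1 was higher with 1.08 (1.05 to 1.11). Within the follicular gate the mitochondrial ratio was 1.004 in control and 1.070 in KO B cells, where the nuclear ratios were 1.003 and 1.025. In KO B cells 11 of 13 were higher, led by mt-Nd1 with 1.12 (1.09 to 1.14) and mt-Nd2 with 1.09 (1.07 to 1.12).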

How the data were processed

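Each library's matrix holds UMI counts per cell as deposited, made by the authors with Cell Ranger 5.0.0 on mm10 per the submitters' processing notes, from 10x 5′ capture per the labels' protocols; pools of mice were marked by hashtag antibodies, counted in the same way. The B matrix holds 6339 and the T matrix 9307 barcodes. Cells had to hold 200 genes or more, with mitochondrial UMIs at 10% or less, which left 6218 and 9196. Hashtags were called with HTODemux of Seurat 5.3.0 (R 4.3.3) and tied to pools by the series' design text; 5477 and 7636 cells had 1 hashtag, and cells with several (568 and 1007) were left out as doublets. Doublets within a pool were not removed. Lineage cells had UMIs of at least 3 of 6 B or 4 of 6 T markers and few of the other lineages. The members, gates and lists were chosen with earlier results of these data known.

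Sums per pool and gate were tested with edgeR 4.0.16 (TMM, pool as a block, at least 200 UMIs a gene, Benjamini-Hochberg over all genes). Where same-named pools enter both gates, they are the same animals, which gives the pairing. Pool comparisons use counts per 1000000 UMIs (CPM) with exact Poisson and conditional binomial 95% intervals and no test; intervals and floors of 3 counts cover counting error only. P-values set the difference between gates against the spread of that difference over the pools. The pools differ in day and genotype, with 1 pool of each kind. Nuclear members named are up to 4 highest and 4 lowest of each comparison, 1 representative per complex and isoform families; other pathway genes are up to 2 highest and 2 lowest of a list. DESeq2 1.42.0 served as an alternative. Fits and intervals were tested on simulated data.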

Additional observations from a re-analysis of the deposited data

Results flagged for a closer look

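Of 33 sets of 4 pools (a gate's nuclear share, mitochondrial share or their ratio), 2 had a pool far from the others, and chance alone flags about 1 in 20. In transitional B cells the ratio of mitochondrial to nuclear UMIs was 2.331 in the KO day 4 pool, against at most 1.871 in the other 3 pools. In the interferon T gate the mitochondrial share was 3.118% in the control day 4 pool, against at most 2.998% in the others.

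From day 0 to day 4 the summed mitochondrial level of B-lineage cells moved in opposite directions in the genotypes. The ratio was 0.942908 in control and 1.03528 in KO, with 1 pool per group, and this difference was not tested. Inside the follicular gate the control value was 1.004, with a counting interval that holds 1 (0.992 to 1.016), while KO stood at 1.070. Cells in no gate still moved apart, at 0.959 for control and 1.045 for KO, and so did B1 cells (0.838 and 1.158). Marginal zone, transitional, interferon and Myc-high cells had values above 1 for both genotypes.

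Some rare isoforms stood out in cells outside the lineages, which no comparison used. Cox6b2, known from testis, had 169 UMIs (244.1 CPM) in 15 cells of the B library with erythroid markers, against 47 in all 5241 B-lineage cells. Cox6a2, known from heart and skeletal muscle, had 264.5 CPM in 11 cells with plasmacytoid dendritic markers in the B library and 324.8 in 7 such cells in the T library. All 42 and all 18 of these UMIs came from 1 cell in each library.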

How the results depend on the processing

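Ratios between pools are given in the order KO over control at day 0 and at day 4, then day 4 over day 0 in control and in KO. With TMM factors the nuclear ratios were 1.02, 0.932, 1.196 and 1.09 in B and 1.01, 0.978, 1.13 and 1.09 in T cells, and the mitochondrial ratios 1.03, 1.07, 1.01 and 1.06 in B and 1.02, 1.02, 0.978 and 0.973 in T cells. With ribosomal, receptor and mitochondrial genes left out of the total the nuclear ratios were 1.01, 0.944, 1.16 and 1.08 in B and 1.02, 0.993, 1.12 and 1.09 in T cells, and the mitochondrial ratios 1.02, 1.08, 0.978 and 1.04 in B and 1.03, 1.03, 0.966 and 0.969 in T cells. In the follicular or naive gate only the nuclear ratios were 0.992, 1.01, 1.003 and 1.02 in B and 0.989, 1.02, 1.02 and 1.05 in T cells, and the mitochondrial ratios 1.02, 1.09, 1.004 and 1.07 in B and 1.01, 1.04, 0.987 and 1.01 in T cells. In lineage cells of no gate, chosen after seeing the data, the nuclear ratios were 0.994, 0.98998, 1.04 and 1.03 in B and 0.992, 1.01, 1.05 and 1.07 in T cells, and the mitochondrial ratios 0.991, 1.08, 0.959 and 1.04 in B and 0.994, 1.02, 1.02 and 1.05 in T cells. With cells thinned to 1500 UMIs the nuclear ratios were 0.992, 0.999, 1.04 and 1.05 in B and 0.994, 1.01, 1.07 and 1.09 in T cells, and the mitochondrial ratios 0.995, 1.09, 0.971 and 1.06 in B and 1.02, 1.03, 1.003 and 1.01 in T cells. With at most 5% mitochondrial UMIs the nuclear ratio of B cells at day 4 was 0.972, and the mitochondrial ratios were 1.01, 1.09, 0.947 and 1.03 in B and 1.01, 1.04, 0.972 and 1.0005 in T cells. With hashtags called by ratio the nuclear ratio of T cells at day 4 was 0.985, and the mitochondrial ratios were 1.01, 1.098, 0.957 and 1.04 in B and 1.01, 1.04, 0.977 and 1.01 in T cells. Without a mitochondrial limit the B-cell mitochondrial ratio at day 4 was 1.12. Where a direction turned, the cause was not tested.

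The share of nuclear members higher in KO B cells at day 4 was 7.87% with TMM, 10.1% with the reduced total, 57.5% in the follicular gate, 43.4% in no gate and 57.7% after thinning. In KO T cells at day 4 it was 38.2% with TMM, 74.7% in the naive gate and 41.6% with hashtags by ratio, and at day 0 it was 61.6% in B cells with TMM and 40.7% in the naive gate. For day 4 over day 0 in the follicular or naive gate it was 45.8% and 59.5% in control and KO B cells and 57.8% and 77.1% in T cells, and in no gate 57.8% and 68.7% in B and 62.2% and 80% in T cells. After thinning it was 59.5% in control B cells. Nuclear members at least 25% higher in either pool from day 0 to day 4 in control B cells numbered 17 with TMM, 8 with the reduced total, 3 in the follicular gate, 1 in no gate and 3 after thinning. In KO B cells they numbered 2 with TMM, a 5% limit or a minimum of 20 UMIs, 4 in no gate and 3 after thinning. In control T cells they numbered 0 in the naive gate, 3 in no gate and 4 after thinning, and in KO T cells 2 with TMM, 1 with the reduced total, 0 in the naive gate, 2 in no gate and 1 after thinning. Between genotypes they numbered at most 3 in any setting (3 in B cells at day 4 in the follicular gate, 1 after thinning, 2 with a minimum of 20 UMIs; 3 in T cells at day 0 in no gate or with 20 UMIs, 1 after thinning; 1 in T cells at day 4 with TMM, hashtags by ratio or 20 UMIs).

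Counts of nuclear members that passed against the reference gate moved by over 1.5 times as follows. Without TMM 10 passed in marginal zone, 4 in transitional, 24 in innate-like, 57 in regulatory and 44 in effector or memory cells. With the DESeq2 test it was 0 in transitional, 5 in innate-like, 13 in regulatory and 6 in effector or memory cells, and with its size factors 2 in transitional cells. With cells of 3000 to 8000 UMIs, added after seeing the data as were the fits without TMM, 1 passed in marginal zone, 0 in transitional, 22 in Myc-high, 14 in regulatory and 10 in effector or memory cells; germinal center, B1 and cycling T cells could not be fitted so. Without the filter on low counts it was 2 in B1, 0 in transitional and 6 in innate-like cells, with the reduced total 10 in B1 and 3 in transitional cells, with a 5% limit 7 in B1, without a limit 2 in transitional and with 1 more marker 7 in marginal zone cells. Without the replicate block 12 passed in B1 cells; in germinal center cells 57 did (56 with the block) and in B against T cells 47 (59), and no other count moved by over 1.5 times. Leaving out each pool in turn gave 33 to 55 in germinal center, 1 to 3 in B1, 12 to 15 in marginal zone, 0 to 1 in transitional, 37 to 44 in Myc-high, 46 to 72 in cycling T, 6 to 10 in innate-like, 12 to 30 in regulatory, 6 to 15 in effector or memory and 49 to 55 in B against T cells. Without the control day 4 pool 12 passed in regulatory and 8 in effector or memory cells, and without the KO day 4 pool 14 and 6. Single genes changed sign only without TMM: Atp5g2 (0.033), Cox4i1 (0.20), mt-Co1 (0.063), mt-Co2 (0.036) and mt-Co3 (0.042) in effector or memory cells and mt-Atp6 (0.10) in B against T cells.

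With 1 more marker in each gate the mean mitochondrial to nuclear ratio was 0.991 in germinal center, 2.62 in B1, 2.25 in interferon and 1.401 in Myc-high B cells and 0.832 in cycling, 1.23 in follicular helper and 1.39 in effector or memory T cells. With a 5% limit it was 2.004 in B1, 2.01 in marginal zone, 2.08 in follicular and 1.26 in follicular helper cells. The nuclear share over that of the reference gate, with 1 more marker, was 1.31 in plasma, 1.74 in germinal center, 1.11 in activated, 0.995 in interferon and 1.37 in Myc-high B cells and 1.247 in effector or memory T cells, and the mitochondrial 0.433 in plasma, 0.766 in germinal center, 0.842 in Myc-high and 0.942 in regulatory cells. With the reduced total the nuclear share was 1.63 in plasma, 1.48 in germinal center, 1.11 in marginal zone, 1.09 in activated, 1.28 in cycling T, 1.01 in innate-like, 1.07 in regulatory, 1.201 in follicular helper, 1.003 in interferon T and 1.004 in effector or memory cells, against 1.4003, 1.65, 1.05, 1.09, 1.62, 1.18, 1.22, 1.45, 1.05 and 1.203 of all UMIs. The mitochondrial share was then 0.619 in plasma, 0.724 in germinal center, 1.13 in marginal zone, 0.965 in transitional, 0.619 in cycling T, 0.882 in innate-like, 0.874 in regulatory, 0.908 in follicular helper (1.095 of all UMIs), 0.949 in interferon T and 0.821 in effector or memory cells. With a 5% limit it was 0.840 in germinal center, 1.03 in marginal zone, 0.975 in activated and 0.908 in Myc-high cells, and the nuclear share 1.08 in activated cells; without a limit activated cells had 1.09 and 0.925.

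Depth limits members of few UMIs: the minimum of 200 left 82 to 89 of 97 nuclear members in the tests. Plasma, cycling B, activated B and follicular helper cells had 2 pools and no test.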
